A study of Homo sapiens with 2 samples.

Results

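The 10 genes described here encode DNA enzymes whose proteins hold an iron-sulfur cluster, and they were chosen by name for that feature: POLD1, POLE, PRIM2, DNA2, ERCC2, BRIP1, RTEL1, DDX11, MUTYH and NTHL1. All 10 are among the 46427 genes of the deposited table. RTEL1 is described beside RTEL1-TNFRSF6B, a readthrough gene that joins it to its neighbour and is listed as a gene of its own.

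RNA of NK92, an established human natural killer cell line, was sequenced so that expression changes under PPMX-T003 could enter connectivity scoring, which sets them beside those of other agents. PPMX-T003 is an antibody that blocks transferrin receptor 1, through which cells take up iron. After 18 h of pre-incubation the cells were divided between a control dish without antibody and a dish kept for 6 h with the antibody at 10 µg/mL. Each condition is 1 dish, 1 poly(A)-selected stranded library and 1 cell line, so the differences given here have no replicate check. The headers of the deposited table read 0 h and 6 h, but by the methods both dishes were kept for the same time, and a difference in harvest time cannot be told apart from the exposure. The control library held 46766416 counts and the PPMX-T003 library 43178462.

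The natural killer label was checked first. All 11 natural killer markers passed the minimum of 20 counts summed over the libraries. They had 197037 summed counts in the control and 199939 with PPMX-T003. IL2RB, an interleukin receptor chain, took the most counts of them in the control, 56260. On the deposited TPM, which corrects for transcript length, NKG7 stood highest in the control at 3215, beside 669 for IL2RB. The 8 markers of T cells, B cells, monocytes, red cells and hepatocytes held 2 summed counts in the control and 7 with PPMX-T003. CD3D, CD3G, CD8B, MS4A1, HBB and ALB were at 0 in both libraries. LYZ had 2 counts in the control and 0 with PPMX-T003, and CD14, named after its values were seen, had 0 and 7.

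Iron-sulfur clusters are built from iron and cysteine sulfur, and a cytosolic delivery pathway inserts them into enzymes that copy, unwind and repair DNA. In the replicative polymerases and primase the cluster sits in a domain that holds subunits or DNA, in the XPD family of helicases it shapes the part that separates the strands, and in base excision glycosylases it lies near the DNA-binding surface. RNA levels were measured here, and the proteins and their cluster content were not analysed here.

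All 10 enzymes were expressed in both libraries, and none differed 2-fold between them. MUTYH and POLD1 were higher with PPMX-T003 beyond counting error, while RTEL1, DNA2, BRIP1 and PRIM2 were lower. MUTYH showed the largest rise (log2 fold change 0.36, 95% interval 0.26 to 0.47) and RTEL1, by the reads assigned to it alone, the largest fall (-0.35, interval -0.47 to -0.24). The fall of RTEL1 went together with a rise of its readthrough gene, and the reads of both summed were higher (0.15, interval 0.05 to 0.25), though not after the fit described below (0.08, interval -0.02 to 0.18). Once a trend with transcript GC content and length was removed, POLD1 was no longer higher (-0.03) and BRIP1 (-0.09) and PRIM2 (-0.03) no longer passed. ERCC2, whose interval held 0 before, was then lower (-0.21, interval -0.38 to -0.05). In bulk RNA, fewer cells in a given state and less RNA per cell cannot be told apart.

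Reads of a gene are given as counts and as CPM, the counts relative to library size after TMM scaling (trimmed mean of log ratios). A log2 fold change here is log2 CPM with PPMX-T003 minus log2 CPM in the control, each with a prior count of 2. Its 95% interval is the Clopper-Pearson interval for the share of the gene's reads that came from the PPMX-T003 library, expressed as a log2 ratio. It covers counting error only and compares these libraries, not the conditions. A gene is called higher or lower where its interval lies outside 0. Levels of different genes are compared on the deposited TPM, which corrects for transcript length and was rounded to whole numbers by the authors.

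On the deposited TPM scale the control levels ran from 8 for ERCC2 to 93 for POLD1. NTHL1 came next to POLD1 at 65, followed by DNA2 at 50, PRIM2 at 45, MUTYH at 38 and DDX11 at 32. The lower end held POLE at 23, RTEL1 at 16 and BRIP1 at 14, above ERCC2. With PPMX-T003, MUTYH stood above DNA2 and PRIM2, and the other members kept their order. With 1 library per condition, the order of neighbours such as RTEL1 and BRIP1 could not be set against a spread between replicates. The members took 26580 counts of the control library, 0.0568% (Clopper-Pearson interval 0.0562 to 0.0575), and 24195 counts of the PPMX-T003 library, 0.0560% (0.0553 to 0.0567). Their summed reads differed by -0.02 on the log2 scale (interval -0.04 to 0.01), or by -0.05 (interval -0.07 to -0.02) with the fit described below, a value added after seeing the data.

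**Figure D1:**
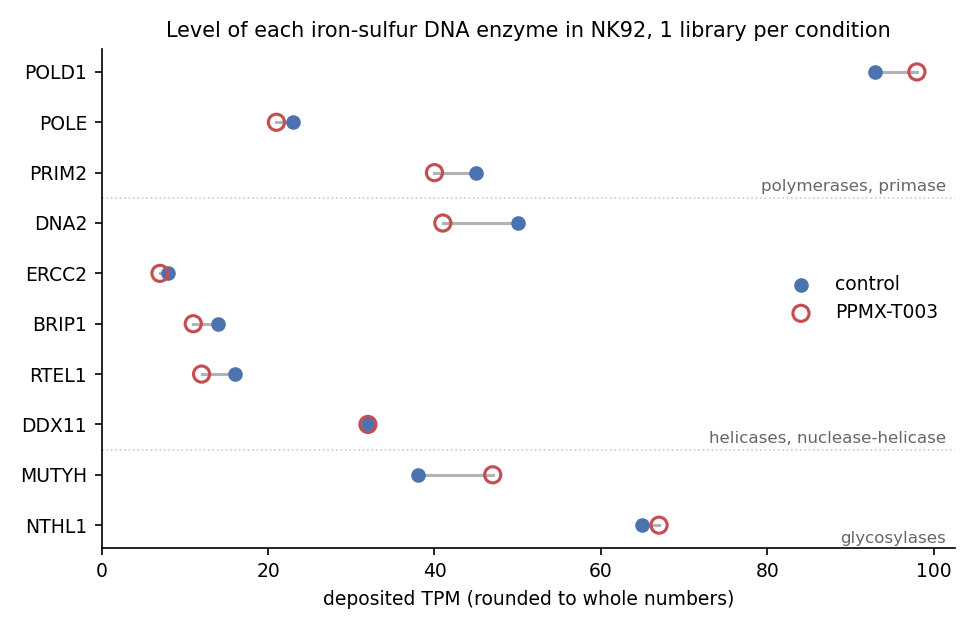
Level of each member in the deposited TPM (x axis, whole numbers), with the control library as filled points and the PPMX-T003 library as open circles, 1 library per condition and genes ordered by role. POLD1 lies highest at 93 and 98, ERCC2 lowest at 8 and 7, and MUTYH moves from 38 to 47.

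Of the replicative enzymes, POLD1 (chr19:50384323-50418018, plus strand; members' positions are those of the RefSeq genes on GRCh38.p14) encodes the catalytic subunit of polymerase delta, which copies the lagging strand. POLD1 had 6697 counts in the control and 6722 with PPMX-T003, or 143 and 156 CPM. Its log2 fold change was 0.12 (interval 0.07 to 0.17), the only call among the members whose sign turned with the GC content and length fit, to -0.03 (interval -0.07 to 0.02), or 0.01 where the longest transcript of each gene was used. The PPMX-T003 library was thus higher for POLD1 before the fit and did not differ beyond counting error after it. In GENCODE 29, 8.6% of the exon bases of POLD1 are shared with AC020909.1 on the same strand. No counts were available for that gene, so reads divided between the pair could not be followed.

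POLE (chr12:132623762-132687342, minus strand) encodes the catalytic subunit of polymerase epsilon, which copies the leading strand. It had 3628 counts in the control and 3247 with PPMX-T003, or 77.5 and 75.3 CPM. The log2 fold change was -0.04 (interval -0.11 to 0.03), so a difference was not detectable at this depth. On the deposited TPM the value was -0.13, outside that interval, on a scale that as a whole ran lower by 0.05 (median over genes with a TPM of 20 or more in both libraries).

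PRIM2 (chr6:57221540-57646850, plus strand) encodes the large subunit of primase, which helps lay the RNA primers that polymerase alpha extends. PRIM2 had 2163 counts in the control and 1859 with PPMX-T003, or 46.2 and 43.1 CPM. It was lower with PPMX-T003 by a log2 fold change of -0.10, with an interval that ended close to 0 (-0.19 to -0.01). After the fit the value was -0.03 (interval -0.12 to 0.06). No counts were available under the name of PRIM2BP, a pseudogene of PRIM2, so reads divided between the pair could not be followed.

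Among the enzymes that unwind DNA, DNA2 (chr10:68414064-68472521, minus strand) is a nuclease with a helicase domain that trims flaps during replication and resects broken ends. DNA2 had 4425 counts in the control and 3509 with PPMX-T003, or 94.5 and 81.4 CPM. It fell by 0.22 on the log2 scale (interval -0.28 to -0.15). The fall was smaller after the fit, at -0.08, and its interval still lay below 0 (-0.14 to -0.02).

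ERCC2 (chr19:45349837-45370573, minus strand) encodes XPD, the helicase of the transcription and repair factor TFIIH that opens DNA for nucleotide excision repair. It was the member with the fewest reads, 657 in the control and 553 with PPMX-T003, or 14.0 and 12.8 CPM. Its log2 fold change was -0.13, and the interval held 0 (-0.30 to 0.04). After the fit, in contrast to PRIM2, DNA2 and BRIP1, its value lay farther below 0, at -0.21 (interval -0.38 to -0.05), which passed. The exons of ERCC2 overlap those of KLC3 on the opposite strand, and KLC3 had 0 counts in both libraries.

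BRIP1 (chr17:61679139-61863528, minus strand), also known as FANCJ, is a helicase that binds BRCA1 and resolves DNA structures in front of forks. BRIP1 had 2058 counts in the control and 1648 with PPMX-T003, or 44.0 and 38.2 CPM. It was lower with PPMX-T003, by -0.20 (interval -0.30 to -0.11). After the fit the value was -0.09 and the interval reached 0 (-0.19 to 0.0021). On the deposited TPM it was -0.32.

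DDX11 (chr12:31073860-31104799, plus strand) is a helicase that acts with the fork protection complex and in sister chromatid cohesion. It had 2639 counts in the control and 2510 with PPMX-T003, or 56.4 and 58.2 CPM, a log2 fold change of 0.05 (interval -0.03 to 0.13). DDX11 shares sequence with the pseudogene DDX12P: of the 100-base windows of its longest protein-coding transcript, 13.0% occur unchanged in DDX12P, so reads divided between them are uncertain. DDX12P had 641 counts in the control and 665 with PPMX-T003, which is 19.5% (Clopper-Pearson interval 18.2 to 20.9) and 20.9% (19.5 to 22.4) of the reads of the pair. The intervals of these shares overlap. Summed, the pair had 3280 and 3175 counts and a log2 fold change of 0.07 (interval 0.00063 to 0.14), just past 0. With the fit, chosen for the sum after seeing the data, the value was -0.0048 and the interval held 0 (-0.08 to 0.07).

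RTEL1 (chr20:63657810-63696253, plus strand) is a helicase that takes apart telomere loops and other DNA structures. Its reads cannot be read without those of RTEL1-TNFRSF6B (chr20:63657810-63698698), which runs from the start of RTEL1 into TNFRSF6B, the gene of a decoy receptor. In GENCODE 29 the genes share 4522 exon bases on the same strand, 70.2% of the exon bases of RTEL1, and the counting divides reads from shared exons by an estimate. Of the 3 annotated readthrough transcripts, the one with 35 exons has 32 that overlap RTEL1 and 3 that overlap TNFRSF6B. The join after exon 32 (chr20:63695854-63696760 from the last base before to the first base after the intron) is shown because it is a stretch that sets the readthrough apart from RTEL1, with RTEL1 in lower case and TNFRSF6B in capitals.
RTEL1-TNFRSF6B junction: ctggccagagccccaCAAGGACCATGAGGG

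RTEL1 had 1475 counts in the control and 1063 with PPMX-T003, or 31.5 and 24.6 CPM. RTEL1-TNFRSF6B had 138 counts in the control and 586 with PPMX-T003, or 2.95 and 13.6 CPM. TNFRSF6B itself had 20 and 8 counts. RTEL1 was thus lower and its readthrough gene higher in the PPMX-T003 library, with log2 fold changes of -0.35 (interval -0.47 to -0.24) and 2.19 (interval 1.93 to 2.48). On the deposited TPM, in whole numbers, the readthrough gene went from 1 to 5. With a pseudocount of 1 its value there was 1.58, below that interval. RTEL1-TNFRSF6B passed 2-fold, as did 1.27% of the genes tested in that direction.

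RTEL1-TNFRSF6B is listed as a long non-coding RNA and RTEL1 as protein-coding. Their sum therefore describes the locus and not the coding gene alone. When the reads of RTEL1 and RTEL1-TNFRSF6B were summed, there was no fall. The control had 1613 counts and the PPMX-T003 library 1649, a log2 fold change of 0.15 (interval 0.05 to 0.25). With TNFRSF6B added, which was chosen after seeing the data, the sums were 1633 and 1657 and the value 0.14 (interval 0.04 to 0.24). Also chosen after seeing the data, the fit put the sum of the first pair at 0.08 (interval -0.02 to 0.18), so that neither a fall nor a rise passed. The readthrough gene took 8.56% of the summed reads in the control (Clopper-Pearson interval 7.24 to 10.03) and 35.5% with PPMX-T003 (33.2 to 37.9). These intervals are far apart, but they do not cover the error of the estimate that divides the reads. Whether junction reads moved in the same way was not tested, since the table gives reads per gene.

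**Figure D2:**
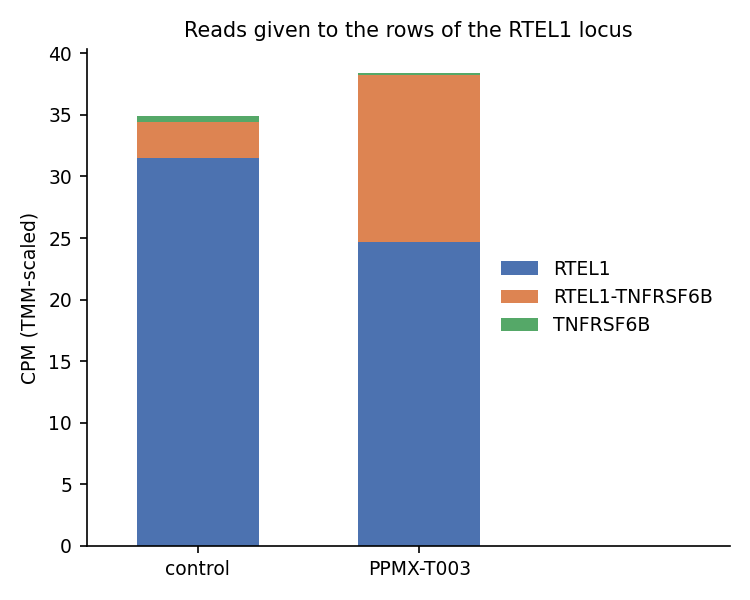
Stacked bars of TMM-scaled CPM for RTEL1, RTEL1-TNFRSF6B and TNFRSF6B in each library, 1 library per bar, with the y axis from 0. The part of RTEL1 goes from 31.5 to 24.6 CPM and that of the readthrough gene from 2.95 to 13.6, while the sum of all 3 is 34.9 in the control and 38.4 with PPMX-T003.

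The glycosylases start base excision repair by cutting a damaged or mispaired base from its sugar. MUTYH (chr1:45329242-45340440, minus strand) removes adenine paired with oxidised guanine. MUTYH had 1436 counts in the control and 1704 with PPMX-T003, or 30.7 and 39.5 CPM, which is 28.8% more. Its log2 fold change of 0.36 (interval 0.26 to 0.47) lay above 99.2% of the genes of like depth, and the value after the fit, 0.27 (interval 0.17 to 0.37), above 98.5%. On the deposited TPM with a pseudocount of 1 the difference was 0.30, and in the fit on longest transcripts it was 0.24. MUTYH was therefore higher in the PPMX-T003 library under every scaling and correction tried. Exons of TOE1 on the opposite strand overlap 14.1% of the exon bases of MUTYH, and the strand setting of the counting is not given in the sources used here, so reads of that stretch cannot be told apart. TOE1 had 2698 counts in the control and 2709 with PPMX-T003, a log2 fold change of 0.12 (interval 0.05 to 0.20). It still passed after the fit (0.09, interval 0.01 to 0.17) but not with longest transcripts (0.06, interval -0.02 to 0.13).

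NTHL1 (chr16:2039820-2047834, minus strand) removes oxidised pyrimidines. It had 1402 counts in the control and 1380 with PPMX-T003, or 29.9 and 32.0 CPM. The log2 fold change of 0.10 had an interval that held 0 (-0.01 to 0.20), and the value was -0.05 after the fit (interval -0.16 to 0.06). TSC2 on the opposite strand overlaps 16.5% of the exon bases of NTHL1 and had 3129 and 3006 counts, a log2 fold change of 0.06 (interval -0.01 to 0.13).

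All 10 members passed the count minimum. Of these, 2 were higher and 4 lower beyond counting error, and the intervals of 4 held 0. Such calls are common in these libraries: of the 13665 genes tested, 22% had an interval above 0 and 23.7% one below. Among the 6489 genes in the range of summed counts that the members span (1210 to 13419), a background chosen after seeing the data, the shares were 25.4% and 30.8%. The counts of members called are near these shares and are no result about the members as a group. The split between directions depended on the scaling, the shared reads and the interval. A 99% interval left 2 members higher and 3 lower. Upper-quartile scaling gave 3 higher and 3 lower members, with NTHL1 passing and PRIM2 no longer doing so. The same split of 3 and 3 was found with RTEL1 and RTEL1-TNFRSF6B summed, where the sum took the place of RTEL1 and counted as higher. None of the members reached 2-fold, beside 1.27% of tested genes that were 2-fold or more above the control and 1.38% that were 2-fold or more below it. Of the 6489 genes in the members' range of summed counts, 4 reached 2-fold in either direction. The median log2 fold change of the members was -0.07, beside -0.00085 over all genes tested. It was -0.15 on the deposited TPM, and the mean was -0.04.

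The spread among genes of like depth gives a second scale for the members. The SD of their log2 fold changes was 0.16, and 95% of them lay between -0.33 and 0.28, while the median width of a gene's own counting interval was 0.18. MUTYH at 0.36 and RTEL1 at -0.35 lay outside that central range. DNA2 at -0.22, BRIP1 at -0.20 and POLD1 at 0.12 lay inside it, as did the other members.

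**Figure D3:**
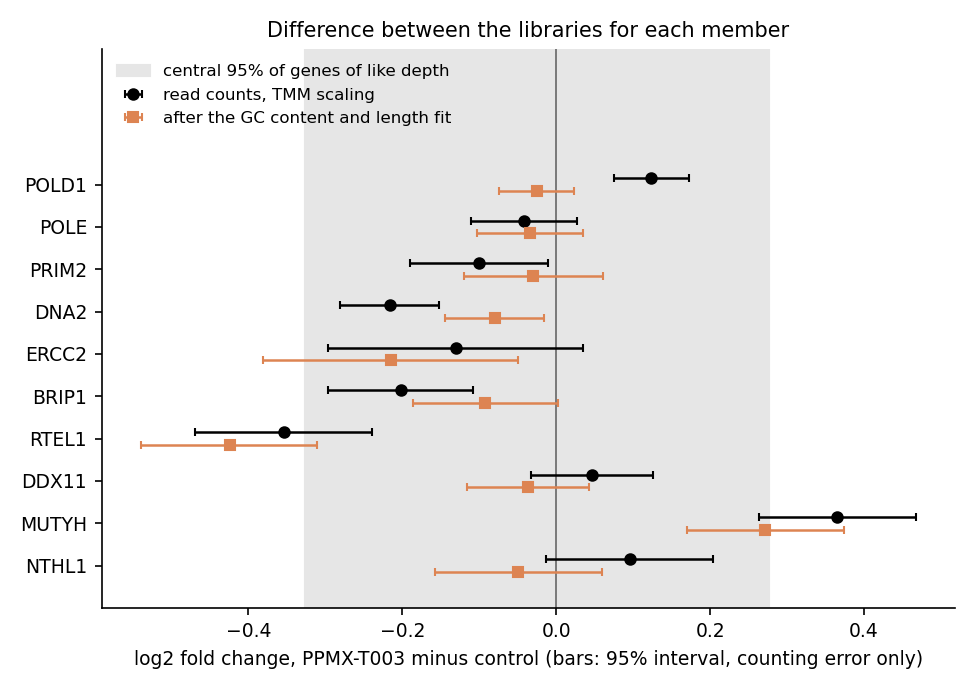
Log2 fold change of each member (x axis, PPMX-T003 minus control) before the GC content and length fit (black circles) and after it (orange squares), with 95% intervals for counting error only, and the central 95% of genes of like depth before the fit in grey. MUTYH (0.36) and RTEL1 (-0.35) lie outside the grey band, and POLD1 crosses from 0.12 to -0.03 with the fit.

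Log2 fold changes in these libraries followed transcript GC content, and the members lie toward both ends of that scale. Where genes were divided into 10 equal bins by GC content, the median was -0.12 in the bin of lowest content (31.8% to 39.9% GC) and 0.12 in that of highest content (61.4% to 74.1% GC). PRIM2, DNA2 and BRIP1, with 39.2%, 38.2% and 39.5% GC, belong to the lowest bin, and all of them were lower with PPMX-T003. POLD1, NTHL1 and RTEL1, with 64.7%, 63.5% and 62.4%, belong to the highest, where POLD1 and NTHL1 had values near the median of their bin and RTEL1 did not. ERCC2 and MUTYH, at 60.3% and 60.5%, share the next lower bin, whose median was 0.09, and lay on either side of it at -0.13 and 0.36. Members of nearly equal GC content thus had values as far apart as those of ERCC2 and MUTYH.

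With the fit on GC content and length removed, 1 member was higher (MUTYH) and 3 were lower (DNA2, ERCC2 and RTEL1), beside 21.5% and 23.5% of genes of like depth. RTEL1 then stood at -0.42 (interval -0.54 to -0.31), with 0.504% of those genes below it, but for its own reads alone and not for the summed reads of its locus. The median of the members was -0.04 after the fit. What part of the GC trend belongs to the exposure and what part to the libraries was not tested.

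**Figure D4:**
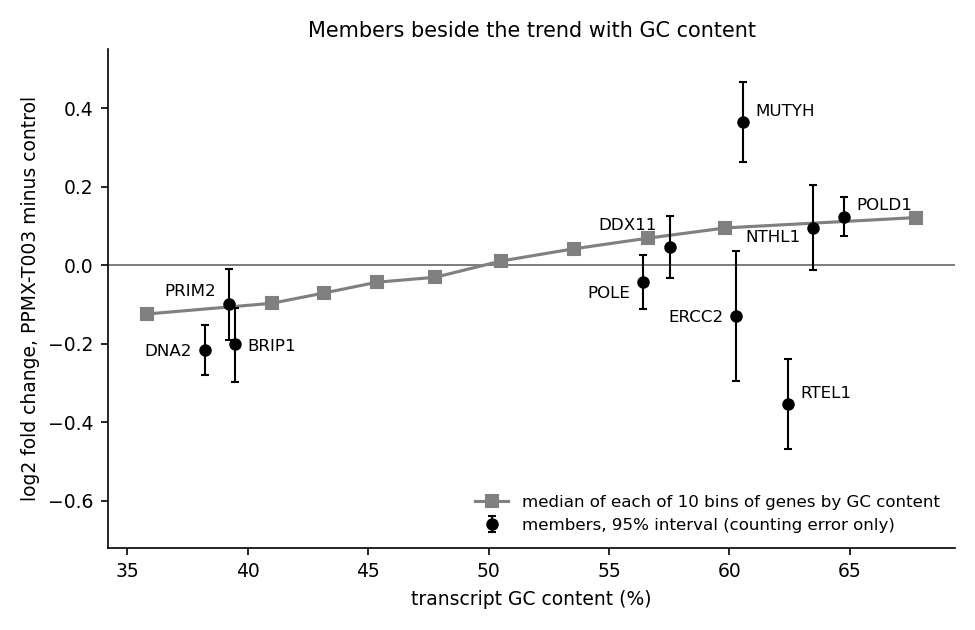
Log2 fold change (y axis, PPMX-T003 minus control) against transcript GC content in percent (x axis) for the members (black, with 95% intervals for counting error only) and the median of each of 10 bins of genes by GC content (grey squares, drawn at the middle of the range of each bin). PRIM2, DNA2 and BRIP1 lie at the low end near 39% with values below 0, and MUTYH (0.36) and RTEL1 (-0.35) lie farthest from the line.

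The sequence before the start sites was compared because the members differ so much in base composition. RefSeq (GRCh38.p14) gave 15 start windows for 9 of the members, and for DNA2 no window was used. BRIP1 and POLD1, members that before the fit were lower and higher, are shown as the 250 bases before their outermost listed start, 5′ to 3′ on the strand of the gene, at chr17:61863529-61863778 (minus strand) and chr19:50384073-50384322 (plus strand). Capitals mark matches on either strand, and none of them overlap. The motifs searched were the GC box, spelled GGGCGG, the box known as CCAAT by its letters, the E-box, spelled CACGTG, an E2F-type motif, spelled TTCCCGC, and the cell cycle homology element CHR, spelled TTTGAA.
BRIP1: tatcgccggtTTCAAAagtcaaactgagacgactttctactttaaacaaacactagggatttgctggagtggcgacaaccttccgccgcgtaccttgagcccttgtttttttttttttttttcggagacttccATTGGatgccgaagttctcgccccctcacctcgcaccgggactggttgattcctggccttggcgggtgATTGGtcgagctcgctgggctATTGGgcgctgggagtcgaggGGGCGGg
POLD1: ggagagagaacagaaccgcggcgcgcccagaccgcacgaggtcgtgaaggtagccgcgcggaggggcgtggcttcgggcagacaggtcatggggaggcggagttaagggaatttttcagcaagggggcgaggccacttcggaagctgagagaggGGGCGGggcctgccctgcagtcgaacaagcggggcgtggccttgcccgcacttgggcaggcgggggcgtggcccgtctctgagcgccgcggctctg

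The BRIP1 window was 54.0% GC and that of POLD1 69.6%, beside a median of 58% over 35116 RefSeq windows. BRIP1 held 3 CCAAT boxes, all in reverse as ATTGG, at 117, 49 and 28 bases before the start, 1 GC box at 7 bases and 1 reverse CHR at 240 bases. POLD1 held 1 GC box, at 96 bases. GC boxes were found in 9 of the 15 member windows and in 42.6% of all windows. Overlapping windows of MUTYH hold the same GC box, and counted by gene, 8 of the 9 members with a window had one. Some members have several windows, and no share by gene was computed over all genes, so that count has no background. CCAAT boxes were found in 5 of the 15 (windows of POLE, ERCC2, BRIP1 and MUTYH) and in 32.0% of all windows. The E2F-type letters were found in 2 of the 15, both of DDX11, and in 5.52% of all windows. An E-box was found in 1, that of NTHL1, and in 6.34% of all windows, and the CHR letters in 2, of BRIP1 and MUTYH, and in 13.3%. A match describes these letters and is not a measured binding site.

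The partners of the members were compared next, since most of these enzymes work in complexes. The shares over all genes tested to read these lists against are the 22% higher and 23.7% lower given above, and calls after the fit are given beside each list, with those of the fit on longest transcripts where they differ. In no list did any gene reach 2-fold, other than among the genes that share sequence with a member or with its readthrough gene. Of 12 partners of polymerases delta and epsilon, including the sliding clamp and its loader, 4 were higher, 4 were lower, and the median was 0.04, against 4 higher, 2 lower and a median of -0.0013 after the fit, and 4 higher and 3 lower with longest transcripts. In the clamp loader RFC2 was higher (0.16, interval 0.11 to 0.21), whereas RFC1 (-0.15, interval -0.19 to -0.11), RFC4 (-0.12, interval -0.18 to -0.05) and RFC3 (-0.09, interval -0.14 to -0.05) were lower. The intervals of RFC3 held 0 in both fits (-0.04 and -0.03). The other 3 calls held in both, although with longest transcripts RFC2 was at 0.08 and RFC1 at -0.06. On the deposited TPM scale POLD1 at 93 in the control lay close to the median of these partners, 97.5, and POLE at 23 lay below 10 of the 12.

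Of the 3 partners of PRIM2 in the primase and polymerase alpha complex, 2 were lower. PRIM1, the catalytic primase subunit, had 2357 counts in the control and 1961 with PPMX-T003 (log2 fold change -0.15, interval -0.23 to -0.06). POLA1, the catalytic subunit of polymerase alpha, had 5335 and 4508 (-0.12, interval -0.18 to -0.07). After the fit the intervals of both held 0, like that of PRIM2, with values of -0.08 and -0.0076. With longest transcripts PRIM1 passed (-0.13, interval -0.22 to -0.05) and POLA1 did not.

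Of the 9 other TFIIH subunits, none was higher, 4 were lower, and the median was -0.04. After the fit 2 were higher and 4 lower, and the median was -0.01. CDK7, the kinase of the complex, was lower (-0.17, interval -0.27 to -0.08), as were its cyclin CCNH (-0.14, interval -0.23 to -0.06) and the core subunit GTF2H2 (-0.15, interval -0.22 to -0.09). After the fit their values were -0.11, -0.09 and -0.07. With longest transcripts 2 subunits were higher and 2 lower, and of the 3 named here CDK7 alone passed (-0.16), while the intervals of CCNH and GTF2H2, both at -0.05, held 0. ERCC2 had the lower TPM beside 8 of these 9 subunits in both libraries, at 8 in the control against a median of 62.

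DNA helicases without a cluster had a median of -0.10, with 2 of 11 higher and 6 lower. After the fit 1 was higher and 2 were lower, and the median was -0.03. RECQL5 was higher (0.25, interval 0.14 to 0.36), and ZGRF1 (-0.25, interval -0.36 to -0.15) and the RecQ helicase BLM (-0.17, interval -0.24 to -0.11) were lower. After the fit RECQL5 was at 0.20 and ZGRF1 at -0.11, and BLM, at -0.05, had an interval that held 0. With longest transcripts 2 of the 11 were higher and 2 lower, BLM passed (-0.07, interval -0.13 to -0.01) and ZGRF1 did not (-0.11, interval -0.22 to 0.0017). Of 12 proteins that act with the helicases of the members, 5 were higher and 5 lower, among them RPA3, a subunit of the single-strand binding complex (0.28, interval 0.19 to 0.36), and WDHD1, a replisome scaffold (-0.21, interval -0.27 to -0.14). After the fit 4 of these proteins were higher and 4 lower, with RPA3 at 0.28 and WDHD1 at -0.08, and with longest transcripts 4 were higher and 2 lower.

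Glycosylases without MUTYH and NTHL1 were higher more often than lower, 4 against 1 of 9, with a median of 0.17, or 0.02 on the deposited TPM. UNG, which removes uracil, was higher (0.17, interval 0.09 to 0.25), as was OGG1, which removes oxidised guanine (0.19, interval 0.08 to 0.31), and MPG, which removes alkylated purines (0.20, interval 0.09 to 0.31). TDG, a thymine glycosylase, was lower (-0.21, interval -0.26 to -0.15). After the fit 4 were higher and 1 lower, with a median of 0.11, but they were not the same genes. MPG no longer passed (0.06, interval -0.05 to 0.17) and neither did SMUG1 (0.11), while NEIL3 (0.15) and MBD4 (0.09) newly did, the last 3 being named after their values were seen. OGG1 was then at 0.13, UNG at 0.17 and TDG at -0.16. With longest transcripts 2 were higher (UNG and OGG1) and 1 lower (TDG). MUTYH had the larger value beside OGG1, its partner in the repair of oxidised guanine, with intervals that overlapped between 0.26 and 0.31. Of 7 enzymes of the later steps, 2 were higher and 1 was lower, with a median of 0.05. The abasic site nucleases APEX1 (0.15, interval 0.10 to 0.20) and APEX2 (0.20, interval 0.13 to 0.28) were higher. The ligase LIG3 was lower (-0.08, interval -0.15 to -0.01). After the fit 3 of these enzymes were higher and 3 lower, APEX1 was at 0.09 and LIG3 at -0.10, and the median was -0.08. With longest transcripts 2 were higher (APEX1 and APEX2) and none was lower, and the median was 0.0063, the value of LIG3.

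Iron-sulfur enzymes outside the members and the delivery pathway itself complete the comparison. Of 7 other enzymes that act on nucleic acids and hold clusters, 1 was higher and 3 were lower, with a median of -0.13. TYW1, which modifies transfer RNA, was higher (0.21, interval 0.13 to 0.30), and ABCE1, which recycles ribosomes, was lower (-0.18, interval -0.21 to -0.14). After the fit 1 was higher and 2 were lower, the median was -0.03, or -0.05 with longest transcripts, and ABCE1 was at -0.08. Of 8 genes of the cytosolic delivery pathway, 4 were higher, none was lower, and the median was 0.08. NUBP2, a scaffold on which clusters are built, had 2342 counts in the control and 2505 with PPMX-T003 (0.22, interval 0.13 to 0.30), and CIAPIN1, which carries electrons for cluster assembly, had 2828 and 2842 (0.13, interval 0.05 to 0.20). After the fit 1 gene of this list was higher and 1 lower, the median was 0.02, and NUBP2 no longer passed (0.04, interval -0.04 to 0.12). With longest transcripts 1 was higher (CIAPIN1) and 2 were lower, and the median was -0.0034.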

How the data were processed

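RNA of NK92 cells from 1 control and 1 PPMX-T003 dish was measured. Per the methods and the submitters' processing notes, the authors trimmed reads with Trimmomatic 0.38, mapped them with HISAT2 2.2.0 to hg38, counted them with StringTie 2.1.3b and named edgeR 3.17 for their comparison. The deposited read counts are whole numbers without scaling. As the authors rounded TPM and FPKM to integers before they deposited them, these columns count as a score, and FPKM was not used here. Larger counts carry commas between digits, so the unit was recorded as other, although the design had assumed plain counts. The commas were removed and the values were used as counts. With 1 library per condition no spread between replicates could be estimated, so no count model with such a spread was fitted.

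TMM scaling trimmed 30% of the log ratios and 5% of the mean levels and gave factors of 1.00 and 0.999. This scaling and log2 CPM (prior count 2) ran in Python 3.11.15 and were tested on simulated data. The packages were pandas 2.3.3, numpy 2.4.6, statsmodels 0.14.6, scipy 1.17.1 and matplotlib 3.10.9. Genes with at least 20 counts summed over both libraries were tested. A robust (Huber) regression of log2 fold changes on transcript GC content and log length used 9926 genes with at least 200 counts. Its trend was subtracted. Content and length were medians over the protein-coding GENCODE 29 transcripts of each gene, or over all its transcripts where none was protein-coding. Short transcripts enter these medians: POLD1 had a length of 1106.5 bases, against 3517 for its longest transcript. GC content was known for 88.5% of the tested genes and for all 10 members. The annotation of the counts is not GENCODE. Start windows and gene positions came from RefSeq, and exon overlaps and the readthrough junction from GENCODE 29.

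The members and the lists were chosen with earlier results of these data known. The result of 1 listed marker is not reported here. All members and RTEL1-TNFRSF6B are named. Of each other list, at most 3 genes per direction with an interval outside 0 are named, by the bound nearest to 0. Listed genes with no more than 3 counts in both libraries are named too. Outside this rule, TNFRSF6B and PRIM2BP were named with RTEL1 and PRIM2, and IL2RB as the natural killer marker with the most counts. SMUG1, NEIL3, MBD4, NCR3 and CD14 were named after their values were seen. TOE1, TSC2, KLC3 and AC020909.1 were named for exons that overlap a member. The alternatives were scaling by library size, upper quartile or median of ratios, a prior count of 0.5 or 5, a count minimum of 1 or 200, the deposited TPM, the GC content and length fit, summed reads of overlapping genes, means, a 99% interval and 1.5-fold.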

Additional observations from a re-analysis of the deposited data

How the results depend on the processing

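No paired analysis was possible because there was 1 library of each condition, and no replicate could be left out. Scaling by library size, median of ratios or upper quartile shifted the median of the genes tested by only -0.0033, 0.00081 and 0.019. Values under these scalings had little room to move. Of values under the alternatives of named genes that passed the count minimum, 424 stayed within the counting interval, 72 moved outside it and 15, of genes called higher or lower, changed sign. Of members not called, 5 more values changed sign, included in the counts of the others: NTHL1 was -0.049 and DDX11 -0.037 with the fit, -0.095 and -0.0028 with longest transcripts, and DDX11 -0.0048 with DDX12P summed and the fit. With the GC content and length fit, POLD1 turned to -0.025, REV3L to 0.0079, KLRC1 to 0.0051, IL2RB to -0.013 and NCR3 to -0.026, and with longest transcripts BRCA1 turned to 0.0098, LIG3 to 0.0063, REV3L to 0.0039, NKG7 to -0.010 and NCR3 to -0.070. CLSPN was 0.014 on the deposited TPM. RTEL1 was 0.15 with its readthrough gene summed and, in alternatives chosen after seeing the data, 0.14 with TNFRSF6B added, 0.078 summed with the fit and 0.082 summed with longest transcripts. The members higher beyond counting error numbered 1 under both forms of the fit. With the fit, medians were -0.036 for primase partners, -0.081 for later base excision enzymes, -0.034 for other iron-sulfur enzymes and 0.030 for natural killer markers, and with longest transcripts -0.031 for primase partners, 0.0063 for later base excision enzymes, -0.0034 for cluster delivery and 0.061 for natural killer markers. On the deposited TPM, medians were 0.020 for other glycosylases and 0.057 for natural killer markers. The 4 listed genes that overlap or share sequence with a member or its readthrough gene ran from -1.04 (TNFRSF6B) to 2.19 (RTEL1-TNFRSF6B). Their median was 0.50, which was 1.18 at a minimum of 200 counts, with fewer genes tested, and 0.076 on the deposited TPM. The causes were not tested.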

Other observations

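Genes that mark natural killer cells also differed between the libraries, with 7 of 11 higher and 3 lower beyond counting error, beside 22% and 23.7% of all genes tested. Such calls were more common among the 6489 genes with 1210 to 13419 summed counts, at 25.4% and 30.8%. Markers such as IL2RB, with 56260 counts in the control, lie above that range, and a share at their depth was not computed. After the GC content and length fit 4 were higher and 2 lower, beside 21.5% and 23.5% of genes in that range, and with longest transcripts 4 and 3. GZMB, the granule protease that natural killer cells release into target cells, had 34265 counts in the control and 38124 with PPMX-T003 (log2 fold change 0.27, interval 0.25 to 0.29). GNLY, a granule protein that damages membranes, had 3362 and 3621 counts (0.23, interval 0.16 to 0.29). NCR1, an activating receptor, was lower, with 1764 and 1408 counts (-0.21, interval -0.31 to -0.10). After the fit these values were 0.21, 0.12 and -0.28, that of NKG7, a granule membrane protein, went from 0.16 to 0.03, and that of KLRC1, a receptor, turned from -0.09 to 0.0051. IL2RB turned from 0.11 to -0.01, and NCR3, a receptor named after its values were seen, from 0.07 to -0.03. With longest transcripts GZMB was at 0.16, NCR1 at -0.27, KLRC1 was lower as before (-0.06), IL2RB was higher (0.07) and NCR3 lower (-0.07). The interval of GNLY then held 0 (0.06, interval -0.01 to 0.13), as did that of NKG7 (-0.010). No replicate check was possible.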
